A study of Mus musculus with 71 samples.

Results

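The 8 genes described here encode cytochrome P450 enzymes of the gut that metabolise drugs, steroids and fatty acids, namely Cyp3a11, Cyp3a13, Cyp3a25, Cyp2b10, Cyp2c29, Cyp2c55, Cyp2c65 and Cyp4f14. They were chosen by name, and all 8 were found among the 24475 genes of the 3 bulk RNA-seq tables, which hold 78 other genes named Cyp1 to Cyp4. The series compared WT female mice with Btnl2-KO littermates, both on a C57BL/6 background and untreated. The Btnl2-KO mice carry a LacZ cassette knocked into Btnl2, a butyrophilin-like gene of the epithelium, and the cassette yields a null allele. Intestinal epithelial cells (IECs) were the light Percoll fraction of 7-week-old mice after EDTA, with 3 WT and 2 Btnl2-KO libraries from duodenum, 3 and 3 from jejunum and 2 and 3 from ileum. γδ intraepithelial lymphocytes (γδ IELs), sorted as CD45+TCRβ-TCRγδ+ cells and pooled from 2 mice per library, were from mice that the labels give as 10 weeks old, with 4 WT and 3 Btnl2-KO libraries from duodenum, 4 and 4 from jejunum and 4 and 3 from ileum. Whole tissue came from mice labelled as young, with 7 WT and 7 Btnl2-KO libraries of small intestine and 6 WT and 7 Btnl2-KO libraries of colon, and the small intestine libraries carry no segment label.

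P450 enzymes are haem proteins of the endoplasmic reticulum that insert an oxygen atom into lipophilic molecules, with electrons delivered by P450 reductase and cytochrome b5. In the gut they sit mainly in the absorptive enterocytes of the villus, where the CYP3A enzymes in particular break down part of an oral drug before it reaches the blood. Transcription of the Cyp3a and Cyp2b genes is classically driven by the nuclear receptors PXR (Nr1i2) and CAR (Nr1i3) as partners of RXR, on a background set by HNF4 factors.

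The genes lie on 4 chromosomes of the mouse genome (GRCm38.p6, RefSeq annotation). Cyp3a13 lies on the minus strand at chr5:137892933-137925610, apart from Cyp3a11 at chr5:145854607-145879854 and Cyp3a25 at chr5:145977192-146009644, also on the minus strand. Cyp2b10 is at chr7:25897658-25926624 on the plus strand and Cyp4f14 at chr17:32903357-32917376 on the minus strand. Cyp2c55 (chr19:39006940-39042690), Cyp2c65 (chr19:39061006-39093948) and Cyp2c29 (chr19:39287044-39330713) are neighbours on the plus strand of chromosome 19. Of 100-base windows of the transcripts, 6.05% in Cyp3a25 were identical to Cyp3a59, 7.82% in Cyp2c65 to Cyp2c66 and 0.312% in Cyp3a11 to Cyp3a44 or Cyp3a16, so part of their reads could be shared. None of the windows of the other 5 genes was identical to another gene. The tables list the genes by Entrez identifier, 13112 for Cyp3a11, 13113 for Cyp3a13, 56388 for Cyp3a25, 13088 for Cyp2b10, 13095 for Cyp2c29, 72082 for Cyp2c55, 72303 for Cyp2c65 and 64385 for Cyp4f14.

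The 250 bases before the first listed start site are shown for 5 of these genes, from RefSeq on GRCm38.p6, because they stand for the patterns seen below: Cyp3a11, Cyp2c65 and Cyp2b10 fell from duodenum to ileum, Cyp2c55 was the member with the highest level in colon and Cyp4f14 was near even along the small intestine. Capitals mark letters searched on both strands, which were chosen with these promoters in view, and no marked stretch overlaps another. CAAAGTCCA was searched as a site of the enterocyte and liver factor HNF4. The GATA factors of the proximal gut were searched by the letters AGATAA, and the caudal factors of the distal gut by the letters TTTATG. A half-site of the nuclear receptors was searched by the letters AGGTCA, and a TATA box by TATAAA. For Cyp2c55, Cyp4f14, Cyp3a13, Cyp3a25 and Cyp2c29 the start used lay inside the gene span given above. Distances are counted from the start used.
Cyp3a11 (chr5:145879855-145880104, minus strand): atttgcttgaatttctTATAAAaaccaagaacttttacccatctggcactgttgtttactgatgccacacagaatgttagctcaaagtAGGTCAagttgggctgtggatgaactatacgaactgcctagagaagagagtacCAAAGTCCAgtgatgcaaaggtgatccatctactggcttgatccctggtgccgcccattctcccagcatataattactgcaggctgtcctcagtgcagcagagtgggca
Cyp2c65 (chr19:39060756-39061005, plus strand): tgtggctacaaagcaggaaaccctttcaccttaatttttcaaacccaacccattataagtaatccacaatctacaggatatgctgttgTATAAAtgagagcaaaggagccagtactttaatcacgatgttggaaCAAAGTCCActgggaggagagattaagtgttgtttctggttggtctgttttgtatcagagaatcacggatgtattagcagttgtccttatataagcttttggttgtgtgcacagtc
Cyp2b10 (chr7:25897408-25897657, plus strand): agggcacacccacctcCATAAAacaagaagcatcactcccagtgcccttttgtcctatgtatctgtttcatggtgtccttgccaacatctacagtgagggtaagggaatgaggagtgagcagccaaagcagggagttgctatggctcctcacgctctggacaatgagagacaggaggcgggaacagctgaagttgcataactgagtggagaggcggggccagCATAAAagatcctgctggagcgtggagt
Cyp2c55 (chr19:39006769-39007018, plus strand): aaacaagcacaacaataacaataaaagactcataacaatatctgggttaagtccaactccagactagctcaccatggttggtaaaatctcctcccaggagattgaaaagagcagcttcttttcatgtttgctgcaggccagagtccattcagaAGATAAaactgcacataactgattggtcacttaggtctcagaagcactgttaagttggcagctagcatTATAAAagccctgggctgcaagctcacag
Cyp4f14 (chr17:32917357-32917606, minus strand): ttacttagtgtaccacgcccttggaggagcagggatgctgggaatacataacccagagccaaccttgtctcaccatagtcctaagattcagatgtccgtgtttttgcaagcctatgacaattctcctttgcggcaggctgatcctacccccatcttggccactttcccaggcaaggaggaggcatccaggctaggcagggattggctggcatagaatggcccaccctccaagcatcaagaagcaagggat

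CAAAGTCCA occurred in 103 of 27025 promoters of the same length (0.381%), and it was in those of Cyp3a11, 109 bases before the start, and Cyp2c65, 116 bases before it. The GATA letters were in 10.3% of promoters, the half-site in 13.8%, the TATA box in 13.0% and the caudal letters in 11.1%. The caudal letters lay 234 and 28 bases before the start of Cyp2b10. There the strand shown reads CATAAA, which differs from the TATAAA searched as a TATA box in its first letter only. The GATA letters lay 97 bases and the TATA box 29 bases before the start of Cyp2c55. The half-site of Cyp3a11 lay 162 bases before its start. TATAAA lay 234 bases before the start of Cyp3a11 and 162 bases before that of Cyp2c65. No match to these letters was found for Cyp4f14 or for Cyp3a13, and other forms of the sites were not searched. Of the genes whose promoters are not shown, Cyp3a25 held the half-site 176 and 155 bases before its start. Cyp2c29 held the GATA letters 127 and 92, the half-site 154 and the TATA box 19 bases before its start. A match describes letters and was not tested as a binding site.

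Library totals were 15397757 to 38258472 counts for IECs, 13444958 to 30029485 for γδ IELs and 13619309 to 21708721 for tissue, and values are CPM, counts scaled to a common library total with TMM factors within each table. Several libraries went against their labels. Among Btnl2-KO IECs, duodenum replicate 1 held 221 CPM of the ileal gene Fabp6, ileum replicate 1 held 0.24, and jejunum replicate 2 held 467 CPM of Fabp6 and 18.8 CPM of Btnl2, against 0.339 to 5.48 CPM of Btnl2 in the other Btnl2-KO IEC libraries and 25.1 to 65.7 in WT. WT small intestine replicates 2 and 3 held 843 and 1640 CPM of the colonocyte gene Car1, which the other 12 small intestine libraries held at no more than 0.606 CPM. The proximal gene Gata4 was above 10 CPM in Btnl2-KO small intestine replicate 1 (96.6) and WT replicates 5 and 7 (83.5 and 15.1), and 12 of the 14 small intestine libraries held over 1000 CPM of Fabp6, so most of them carried an ileal marker. All 12 pan-epithelial genes were detected in IECs and tissue. The 8 liver genes summed to 2250 to 5060 CPM over the IEC libraries. Of these, Alb, Serpina1a, Apoa2, Fgb and Ahsg were each below 1 CPM in every IEC library, so the sum lay in Ttr, Tat and Cps1.

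In WT IECs, 6 of the 8 P450 genes were lower in ileum than in duodenum, by 6.06-fold for Cyp2c65 up to 219-fold for Cyp2b10, and jejunum lay between. Cyp4f14 was near even over the 3 segments and Cyp3a13 fell short of the test. A gene was called changed at an adjusted p below 0.05 and a fold change above 1.5 in edgeR's quasi-likelihood test, adjusted over all genes tested. Beside these 6 of 8, 6.59% of 13046 genes were called in this comparison and 2.38% were called lower. The groups did not overlap for 7 of the 8, all but Cyp4f14, against 17.9% of genes that were lower in ileum without overlap. The median log2 change was -3.03 over the 8 genes, also with Cyp2c29 at its bound, and 0.01 over all genes.

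Cyp3a11, the main mouse counterpart of human CYP3A4, was at 69.2, 137 and 48.4 CPM in WT duodenum, at 3.93, 14.4 and 30.8 in jejunum and at 1.03 and 2.15 in ileum. The segments did not overlap, and every duodenal library was above every jejunal one. The mean was 84.7 ± 46.1 CPM (SD, n = 3) in duodenum and 1.59 ± 0.788 (n = 2) in ileum, a log2 change of -5.73 (SE 0.961, adjusted p = 0.00851). Cyp3a25, a close relative, was at 43.9, 59.0 and 40.8 CPM in duodenum, 10.2, 29.0 and 34.5 in jejunum and 4.43 and 7.87 in ileum. It also stepped down without overlap, though less steeply, with a log2 change of -2.96 from duodenum to ileum (SE 0.520, adjusted p = 0.0104). Cyp3a13, the one encoded apart, was at 157, 248 and 135 CPM in duodenum, 65.7, 127 and 114 in jejunum and 96.7 and 76.7 in ileum. Its duodenal libraries were above all others, but jejunum and ileum overlapped and the change to ileum, -1.05 on the log2 scale (SE 0.348), missed the threshold (adjusted p = 0.123), while DESeq2 called it (-1.06, adjusted p = 0.037).

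Cyp2b10, the classical CAR target, had the steepest slope of the genes with counts in every segment. It was at 88.1, 201 and 50.9 CPM in WT duodenum, 3.87, 34.1 and 27.6 in jejunum and 0.554 and 0.474 in ileum. All 3 segments were separate. The mean fell from 113 ± 78.3 CPM (SD, n = 3) to 0.514 ± 0.0571 (n = 2), a log2 change of -7.77 (SE 1.18, adjusted p = 0.00551).

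The 3 Cyp2c genes, whose enzymes oxidise arachidonic acid as well as drugs, all fell from duodenum to ileum from very different levels. Cyp2c65 was at 127, 201 and 92.1 CPM in duodenum, 45.7, 64.8 and 77.0 in jejunum and 25.5 and 20.7 in ileum, with no overlap between segments and a log2 change of -2.60 (SE 0.375, adjusted p = 0.00441). Cyp2c55 was at 23.2, 41.6 and 12.4 CPM in duodenum, 2.92, 10.1 and 14.3 in jejunum and 2.66 and 3.31 in ileum. Only its duodenum and ileum were separate, with a log2 change of -3.10 (SE 0.714, adjusted p = 0.0333). Cyp2c29 was barely present, at 1.40, 3.94 and 0.983 CPM in duodenum and 0, 0.0632 and 0.442 in jejunum. No count fell on it in either ileal library, so its level there was at least 19.1-fold lower, taking 3 counts per library as the floor (adjusted p = 0.0341), or 10.8-fold without duodenum replicate 2.

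Cyp4f14, which hydroxylates long-chain fatty acids and leukotriene B4, was the most abundant member per base and did not follow the slope. It was at 270, 439 and 245 CPM in duodenum, 167, 355 and 314 in jejunum and 256 and 223 in ileum. The segments overlapped, and the log2 change from duodenum to ileum of -0.41 (SE 0.356) was not called (adjusted p = 0.605).

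**Figure D1:**
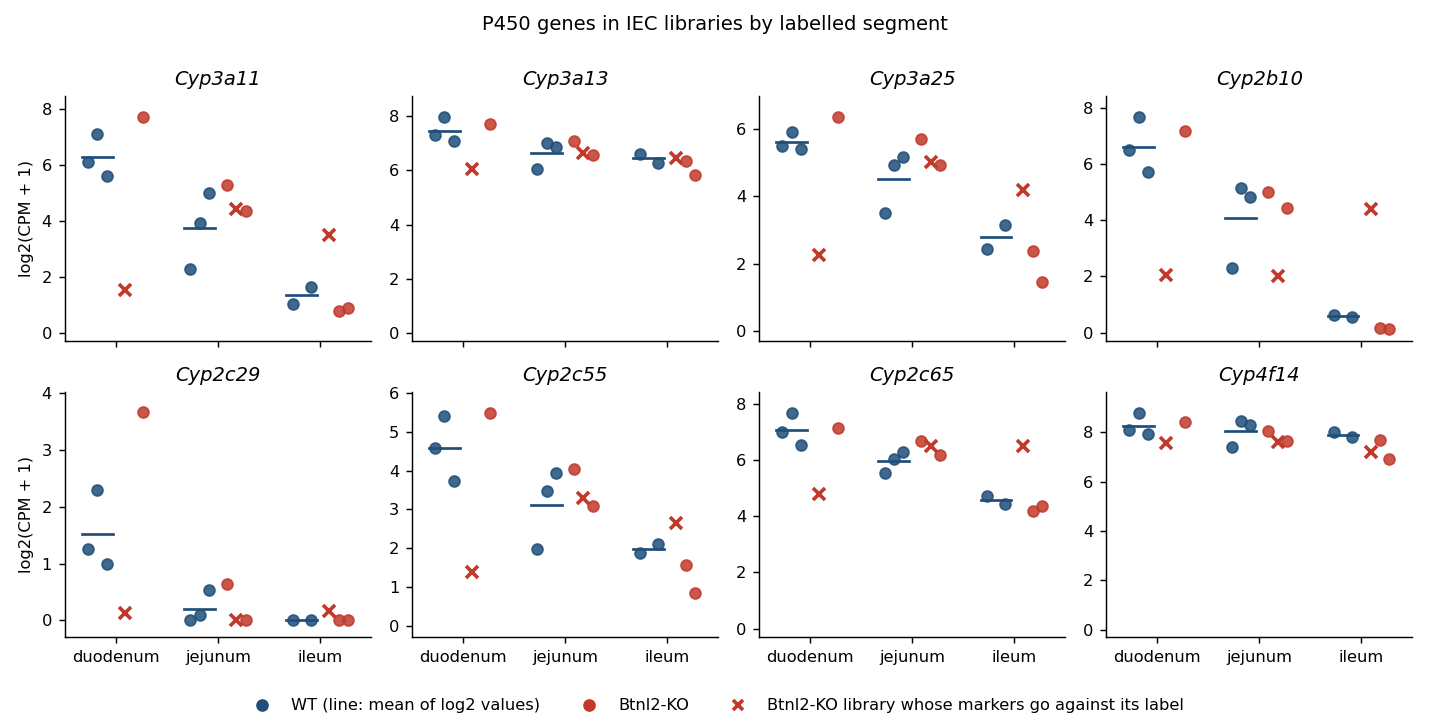
Log2(CPM + 1) of each gene in every IEC library by labelled segment, WT as blue dots with a bar at the mean of the log2 values, Btnl2-KO as red dots, and the 3 Btnl2-KO libraries whose markers go against their labels as red crosses. WT Cyp3a11 ran from 48.4 to 137 CPM in duodenum down to 1.03 and 2.15 in ileum, while Cyp4f14 stayed between 167 and 439 CPM.

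Between neighbouring segments no gene passed the test. From duodenum to jejunum all 8 log2 changes were negative, with a median of -1.34 (0.02 over all genes), but edgeR called 0 of 8, against 0.767% of all genes called. Of the 8, 7 had an unadjusted p below 0.05, as did 14.5% of all genes. DESeq2 called 3, namely Cyp3a11, Cyp2c29 and Cyp2c65, against 3.27% of all genes. Jejunum lay below duodenum without overlap for 6 of the 8, against 9.65% of genes. From jejunum to ileum all 8 were again negative, with a median of -1.79 and of -1.51 with Cyp2c29 at its bound (-0.01 over all genes), and edgeR called 0 of 8 against 0.644% of all genes. Ileum lay below jejunum without overlap for 4 of the 8, against 10.1% of genes. Of the 8, 5 had an unadjusted p below 0.05, as did 6.41% of all genes. DESeq2 called 4, namely Cyp3a11, Cyp3a25, Cyp2b10 and Cyp2c65, against 2.19% of all genes. Leaving out jejunum replicate 1 gave 2 of 8 by edgeR, and the share of all genes called in that fit is not given here. In the 3 duodenal libraries, replicate 2 was the highest and replicate 3 the lowest for all 8 genes, and in jejunum replicate 1 was the lowest for all 8.

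Marker sums moved with these levels. The 11 enterocyte genes, all detected, summed to 6540 to 10200 CPM in WT duodenum and 3560 to 4410 in ileum, and the goblet cell genes to 8340 to 9770 and 16900 to 18200. Duodenum replicate 2 had the highest enterocyte sum of its group (10200), replicate 3 the lowest (6540), and jejunum replicate 1 held 3270 against 7460 and 8850 in the other jejunal libraries. The 7 proximal genes, which share Lct and Rbp2 with the enterocyte list, also summed highest in duodenum replicate 2 (2870 CPM) and lowest in replicate 3 (985). Jejunum replicate 1 held 333 CPM of them against 1190 and 934. The pan-epithelial sums overlapped, at 10600 to 14100 CPM in duodenum and 13000 to 14300 in ileum. The part of these differences in the slope was not tested, and in bulk RNA fewer cells of a type and less RNA per cell cannot be told apart. The ileum had 2 libraries, so leaving out either of them leaves a group of 1, and calls are not counted for such fits. Over the 5 fits that each left out 1 library, the log2 change ran from -8.12 to -7.07 for Cyp2b10. It ran from -6.35 to -5.2 for Cyp3a11, from -3.44 to -2.57 for Cyp2c55 and from -2.83 to -2.25 for Cyp2c65. Cyp2c29 and Cyp2c55 were not called without duodenum replicate 1. A fit over all 16 IEC libraries gave 0 of 8, but it called 0 of all genes, and its log2 changes for Cyp2b10 and Cyp3a11 were -7.77 and -5.73. The same fit without the 3 Btnl2-KO libraries in doubt gave 6 of 8, against 9.95% of all genes.

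The rest of the drug-metabolising machinery was uneven along the same axis in WT IECs. For the lists below, 6.59% of all genes were called in this comparison and 2.38% were called lower. Of the other Cyp1 to Cyp4 genes, 24 of 78 could be tested, 9 were called lower in ileum than in duodenum and 1 higher, with a median log2 change of -1.37. The lower ones included Cyp2c66, the near copy of Cyp2c65, at 31.6 ± 19.4 CPM in duodenum (n = 3) and 0.294 ± 0.00298 in ileum (n = 2), with a log2 change of -6.72 and an adjusted p of 0.0014. They also included Cyp1a1, the classical target of the aryl hydrocarbon receptor, at 10.0 ± 10.8 CPM in duodenum and with no count in ileum. The 1 higher gene was Cyp2w1, at 0.66 ± 0.0452 CPM in ileum and 0.116 ± 0.0677 in duodenum.

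Among 12 regulators and electron donors, 3 were called lower in ileum and 1 higher (median -0.58). CAR itself (Nr1i3) fell from 10.6 ± 3.57 to 1.67 ± 0.25 CPM, by 2.66 on the log2 scale (adjusted p = 0.005), and Cyb5a (cytochrome b5) and Cyb5r3 (cytochrome b5 reductase) fell by 1.05 and 1.39. FXR (Nr1h4), the bile acid receptor, was the one that rose, from 36.0 ± 8.17 to 77.5 ± 4.37 CPM, with a log2 change of 1.11 (adjusted p = 0.0137). PXR (Nr1i2) was at 52.1 ± 8.93 CPM in duodenum and 40.0 ± 4.09 in ileum, Hnf4a at 943 ± 21.6 and 932 ± 13.9, Rxra at 126 ± 15.8 and 125 ± 4.87 and the reductase gene Por at 91.3 ± 42.0 and 45.3 ± 7.07, none of them called.

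Conjugating (phase 2) enzymes and the esterase and dehydrogenase list went the way of the P450 genes. Of 28 phase 2 genes tested, 11 were called lower in ileum and 0 higher (median -1.10), among them the glutathione transferase Gstm3, at 137 ± 51.9 CPM in duodenum and 9.44 ± 2.11 in ileum, and the bilirubin glucuronosyltransferase Ugt1a1, at 342 ± 129 and 77.3 ± 15.3. Of 24 esterases, dehydrogenases and flavin monooxygenases, 13 were called lower and 0 higher (median -1.59), led by the alcohol dehydrogenase Adh1, which fell by 5.13, and the carboxylesterase Ces2g, which fell by 4.55 on the log2 scale. Of 14 transporters, 1 was called lower, the conjugate exporter Abcc2 (74.8 ± 15.1 to 17.4 ± 3.73 CPM), and 2 higher, Abcb1a and Abcc4, with log2 changes of 0.73 and 1.30 (list median -0.15).

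The genes most like each member over the 8 WT IEC libraries were ranked by Pearson's r of log2 CPM among 7942 genes with a mean of at least 10 CPM. These points share their segments, and within a segment they share the enterocyte and proximal marker levels of the library, so the values are a description. For Cyp3a11 they were Cat (r = 0.997), Cpped1 (0.985) and Gstm3 (0.982), and for Cyp2b10 they were Slc25a45 (0.996), Gstm3 (0.994) and Rbp2 (0.993). For Cyp3a25 they were Maob (0.990), Nop2 (0.988) and Slc16a10 (0.987), and for Cyp3a13 Aqp11 (0.984), Aoc1 (0.982) and Pm20d1 (0.981). For Cyp2c65 they were Rnase1 (0.992), Syna (0.988) and Gstm6 (0.987), for Cyp2c55 Fmo5 (0.993), Gpd1 (0.992) and Apoc2 (0.989), and for Cyp4f14 Slc43a2 (0.996), Gda (0.989) and Pklr (0.986). Gstm3, a member of the phase 2 list, was the one gene named for 2 members.

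Per kilobase of transcript, the order of the genes in WT duodenal IECs was Cyp4f14 (143 ± 47.5 CPM per kb), Cyp2c65 (72.6 ± 28.7), Cyp3a13 (60.9 ± 20.3), Cyp2b10 (59.2 ± 40.9), Cyp3a11 (36.1 ± 19.6), Cyp3a25 (24.0 ± 4.87), Cyp2c55 (12.9 ± 7.40) and Cyp2c29 (1.18 ± 0.897). The libraries of Cyp4f14 (110 to 198) lay above those of Cyp2c65 (47.8 to 104), while each gene from Cyp2c65 down to Cyp3a25 overlapped the next in order, and Cyp2c29 was separate at the end. In ileum the order began with Cyp4f14 (108 ± 10.5), Cyp3a13 (29.3 ± 4.80) and Cyp2c65 (12 ± 1.79), and Cyp2b10 was second from the end at 0.268 ± 0.0298. Levels across tables, which were normalised apart, are set side by side with no test. In colon the order was another one, with Cyp2c55 first at 417 ± 163 CPM per kb (n = 6), then Cyp3a13 (33.1 ± 7.29), Cyp4f14 (29.0 ± 3.67) and Cyp2c65 (8.28 ± 10.6), and with Cyp3a25 (0.0359 ± 0.0319) and Cyp3a11 (0.00336 ± 0.00823) near 0 and Cyp2b10 and Cyp2c29 at 0. Cyp3a13 and Cyp4f14 overlapped there.

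**Figure D2:**
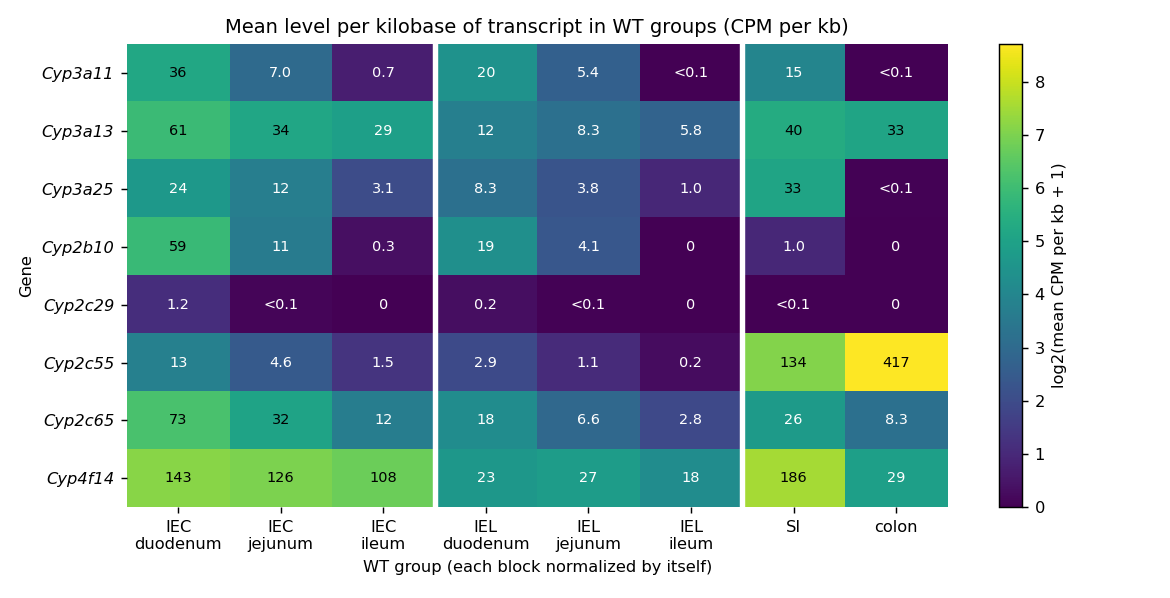
Heat map of the mean level in WT groups, in CPM per kilobase of transcript shown as log2(value + 1), with genes in rows and groups in columns; the IEC, γδ IEL and tissue blocks were normalised separately. Cyp4f14 was highest in all IEC segments (108 to 143 CPM per kb) and Cyp2c55 in colon (417).

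**Figure D3:**
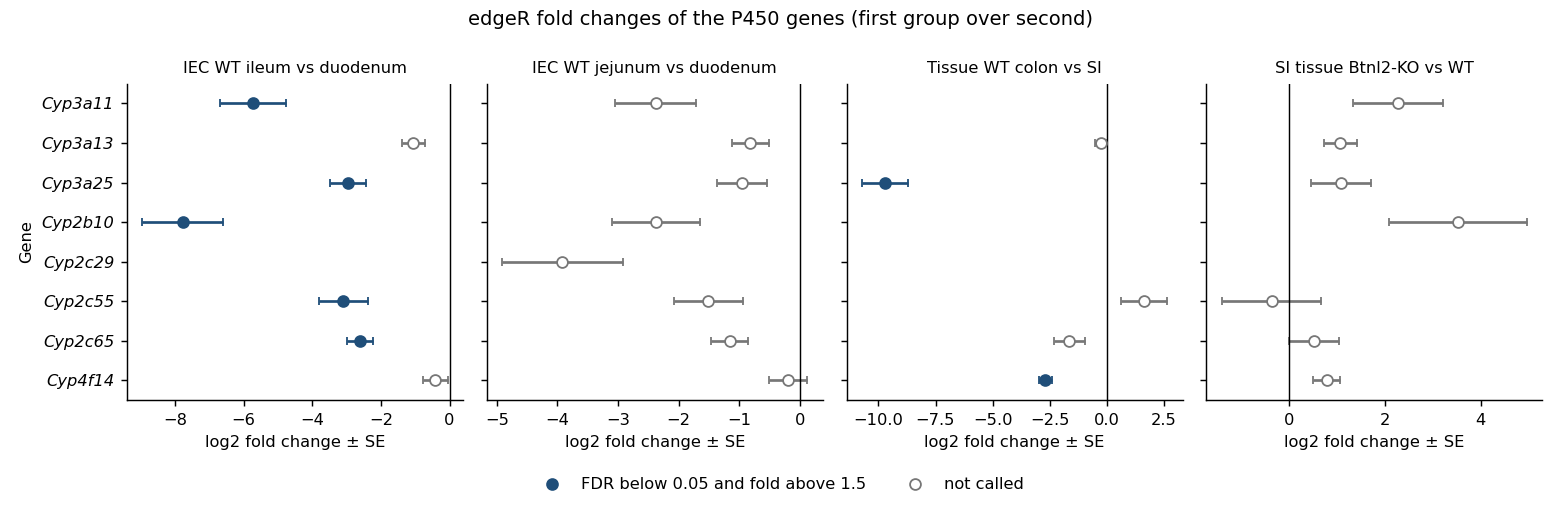
Log2 fold change with its standard error (edgeR) of each gene in 4 comparisons, WT IEC ileum and jejunum against duodenum, WT colon against small intestine (SI), and Btnl2-KO against WT small intestine, with filled points for genes called and genes left out where a group held 3 counts or fewer in all. In ileum against duodenum Cyp2b10 (-7.77) and Cyp3a11 (-5.73) lay farthest from 0, and no point is filled in the genotype comparison.

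In Btnl2-KO IECs none of the P450 genes was called different from WT in any segment. In duodenum edgeR called 0 of 8 (0% of all genes), with 0 at an unadjusted p below 0.05 (1.22% of all genes) and 0 by DESeq2 (0.00795%). In jejunum it called 0 of 7 tested (0%), with 0 below 0.05 (8.4% of all genes) and 0 by DESeq2 (0.00797%). In ileum it called 0 of 7 (0.00774%), with 0 by DESeq2 (0.0155%) and 1 below 0.05 (2.07% of all genes). The 1 gene was Cyp4f14 in ileum, at 148, 206 and 121 CPM in Btnl2-KO and 256 and 223 in WT, which did not overlap (log2 change -0.61, SE 0.244, adjusted p = 0.900). Lower values in Btnl2-KO without overlap were found for 9.14% of genes in this comparison. In duodenum and jejunum edgeR called no gene, so the targeted gene Btnl2 was not called there either. Btnl2 was at 0.339 to 5.48 CPM in Btnl2-KO duodenum against 39.6 to 65.7 in WT, and at 0.588 to 18.8 against 25.7 to 51.9 in jejunum. The absence of a call there does not show equal levels.

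In Btnl2-KO duodenum and ileum, Cyp3a11, Cyp2b10 and Cyp2c65 differed between libraries alongside Fabp6. The library labelled Btnl2-KO duodenum replicate 1, with 221 CPM of Fabp6, held 1.93 CPM of Cyp3a11, 3.19 of Cyp2b10 and 26.7 of Cyp2c65, whereas replicate 2 held 210, 142 and 140. The library labelled Btnl2-KO ileum replicate 1, with 0.24 CPM of Fabp6, held 10.3 CPM of Cyp3a11, 20.3 of Cyp2b10 and 88.0 of Cyp2c65. Ileum replicates 2 and 3, with 618 and 222 CPM of Fabp6, held 0.714 and 0.855 of Cyp3a11, 0.136 and 0.104 of Cyp2b10 and 17.0 and 19.6 of Cyp2c65. In Btnl2-KO jejunum, Cyp3a11 was at 38.5, 20.6 and 19.4 CPM and Cyp2b10 at 31.1, 3.05 and 20.8, the lowest Cyp2b10 value being that of replicate 2 with 467 CPM of Fabp6. Replicate 2 was not the lowest for Cyp3a11, nor for Cyp2c65 (100, 88.4 and 71.9), and Cyp4f14 did not follow Fabp6 in Btnl2-KO ileum (148, 206 and 121). Without these 3 libraries, in one fit of the other IEC libraries, 0 genes of the 8 were called in ileum (0.00721% of all genes), and in jejunum 0 were called without replicate 2. In duodenum that fit also called 0, with a single Btnl2-KO library left that was assumed to vary like the other groups.

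In whole tissue Cyp3a11 and Cyp3a25 were nearly absent from colon, Cyp4f14 was lower there and Cyp2c55 was high there. Cyp3a13 was present in both organs, and Cyp2b10 and Cyp2c29 were scarce in WT small intestine too. In WT colon against small intestine, 3 of 6 tested were called lower, against 15.6% of 15162 genes (27.6% in either direction), with a median log2 change of -2.17 over the 6 (-0.02 over all genes). In Btnl2-KO tissue 6 of 6 were called, 5 lower and 1 higher, against 30.2% of 14798 genes in either direction, 15.7% lower and 14.4% higher, with a median of -3.19 (0.02 over all genes).

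The CYP3A pair next to each other on chromosome 5 was nearly absent from colon. Cyp3a11 in WT small intestine ranged from 1.36 to 125 CPM with a median of 27.8, and in WT colon 1 count in all lay in the 6 libraries, 0.0473 CPM in replicate 1 and 0 in the others. The groups did not overlap, and the ratio of small intestine to colon was 3770 with a 95% counting interval of 677 to 149000 (adjusted p = 5.85e-05). In Btnl2-KO the medians were 89.0 CPM in small intestine (9.05 to 647) and 0 in colon (0 to 0.856), with a log2 change of -10.42 (SE 1.19). Cyp3a25 ranged from 8.10 to 167 CPM (median 56.2) in WT small intestine and from 0 to 0.134 (median 0.0836) in colon, and its log2 change was -9.72 (SE 1, adjusted p = 2.25e-06). Cyp3a13, by contrast, was shared by both organs, at 43.8 to 173 CPM (median 132) in WT small intestine and 70.4 to 137 (median 94.0) in WT colon. These overlapped and the log2 change of -0.28 (SE 0.258) was not called (adjusted p = 0.399), whereas in Btnl2-KO the small intestine ranged from 104 to 515 CPM (median 215) and the colon from 76.2 to 113 (median 90.1), a log2 change of -1.43 (SE 0.275, adjusted p = 0.000413).

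Cyp2b10 had no count in any of the 13 colon libraries. In WT small intestine it ranged from 0.113 to 9.99 CPM with a median of 0.276, so its mean of 1.85 CPM was at least 11.5-fold higher than in colon, or 3.08-fold without WT replicate 5, the library at 9.99 CPM. It was too low for the test in either genotype. Cyp2c29 had 1 count in all 7 WT small intestine libraries and none in WT colon.

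Cyp2c55 ran the other way. In Btnl2-KO it ranged from 17.5 to 542 CPM (median 145) in small intestine and from 688 to 1290 (median 906) in colon, without overlap, and was called higher in colon with a log2 change of 2.17 (SE 0.532, adjusted p = 0.00286). In WT it was at 4 to 1180 CPM (median 38.5) in small intestine and 360 to 1300 (median 817) in colon. The WT groups overlapped through replicates 2 and 3 of small intestine, at 509 and 1180 CPM, the same 2 libraries that held colonocyte Car1. With them the log2 change of 1.63 (SE 1.01) was not called (adjusted p = 0.201), and without them it was 4.55 (adjusted p = 0.00028).

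Cyp2c65 and Cyp4f14 were lower in colon but remained present. Cyp4f14 ranged from 145 to 565 CPM (median 502) in WT small intestine and from 50.6 to 71.9 (median 67.5) in colon, without overlap, a log2 change of -2.69 (SE 0.287, adjusted p = 3.19e-06). In Btnl2-KO its medians were 660 and 49.5 CPM, and the log2 change was -3.67 (SE 0.281). Cyp2c65 ranged from 10.6 to 114 CPM (median 36.0) in WT small intestine and from 3.15 to 57.2 (median 7.73) in colon, which overlapped (log2 change -1.64, SE 0.699, adjusted p = 0.0674). This WT difference was called by DESeq2 (adjusted p = 0.0481) and in the fit over all tissue libraries (adjusted p = 0.0439). In Btnl2-KO it was called, with medians of 60.8 and 6.20 CPM and a log2 change of -2.70 (SE 0.539, adjusted p = 0.000566), although the lowest small intestine library (20.1) lay under 2 of the colon libraries (22.1 and 24.8).

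**Figure D4:**
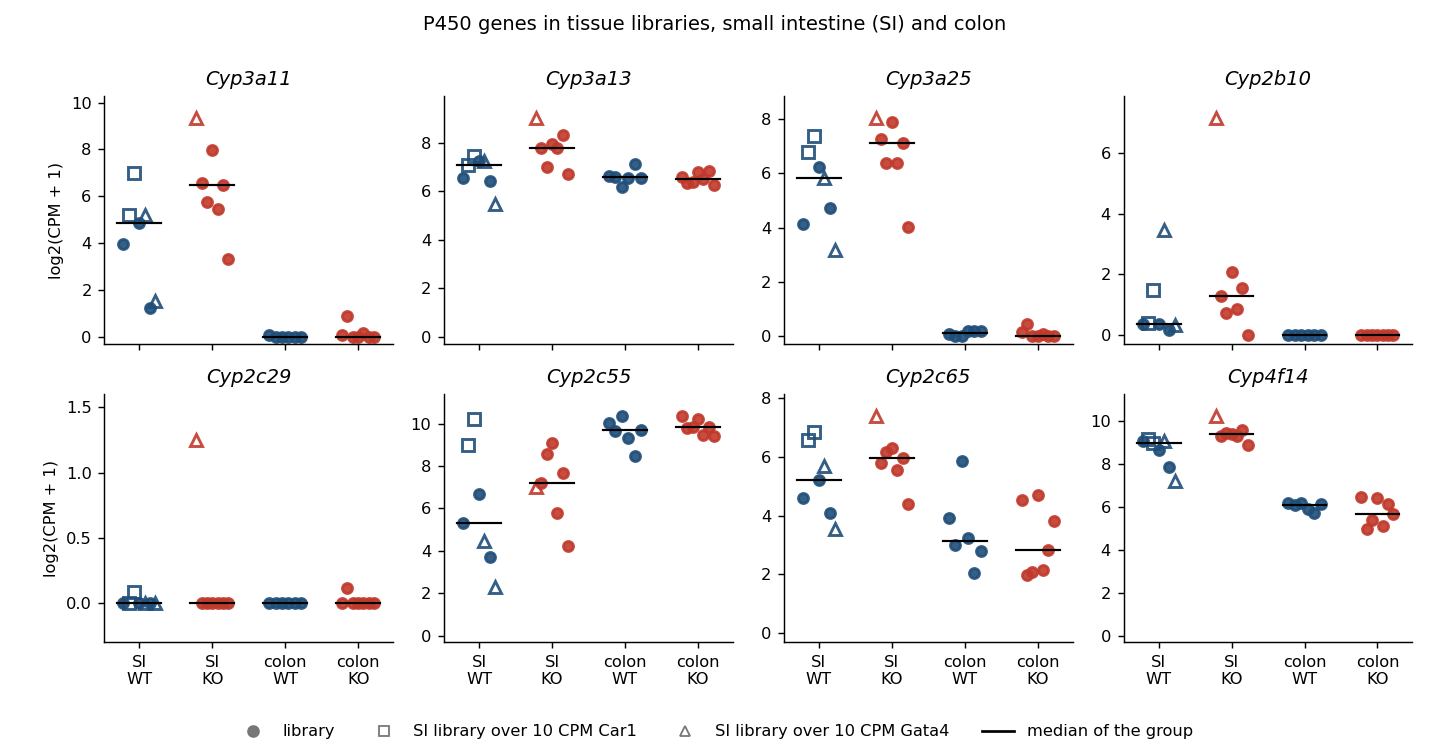
Log2(CPM + 1) of each gene in every tissue library of small intestine (SI) and colon by genotype, with a line at the median; open squares mark small intestine libraries over 10 CPM of Car1 and triangles those over 10 CPM of Gata4. The colon libraries sat at 360 to 1300 CPM of Cyp2c55, and Cyp2b10 was at 0 in all 13 of them.

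The sums of other markers differed between the organs as well. The pan-epithelial sum was 10300 to 19600 CPM in WT small intestine and 11500 to 13100 in WT colon, and 15300 to 20200 and 11200 to 16400 in Btnl2-KO. The enterocyte sum was 2340 to 15900 in WT small intestine and 219 to 365 in WT colon. In Btnl2-KO the enterocyte sum was 14100 to 38400 in small intestine and 173 to 339 in colon. With the mean pan-epithelial level as a covariate 2 of 6 were called in Btnl2-KO (19.4% of all genes), Cyp4f14 and Cyp2c55, and 4 of 6 in WT (29.5% of all genes), where Cyp2c55 joined with a log2 change of 5.76 (adjusted p = 0.00349). In Btnl2-KO the covariate nearly followed the organ, so that fit could not separate organ from epithelial level. Among the genes not called in it, edgeR's log2 changes were -4 for Cyp3a11 (adjusted p = 0.506) and -5.47 for Cyp3a25 (adjusted p = 0.0762). They were -2.55 for Cyp2c65 and -0.26 for Cyp3a13.

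A different set of P450 genes was high in colon. Of 29 other Cyp1 to Cyp4 genes tested in WT tissue, 12 were called higher in colon and 7 lower (median 0.30). Over all genes in this comparison, 27.6% were called in either direction and 15.6% were called lower. Genes of the Cyp2d family led the higher ones, with Cyp2d34 at 184 ± 63.8 CPM in colon (n = 6) and 0.655 ± 0.718 in small intestine (n = 7), and with log2 changes of 8.11, 7.68 and 7.26 for Cyp2d12, Cyp2d13 and Cyp2d9, close copies among which the counting may have divided reads. Cyp2c68, of the same cluster as Cyp2c55, was at 92.1 ± 24.0 CPM in colon and 20.4 ± 6.02 in small intestine (log2 change 2.16). The largest falls were those of Cyp1b1 (-5.85), Cyp2u1 (-3.15), Cyp4b1 (-2.74) and Cyp4v3 (-2.64). Among regulators 5 of 12 were called lower in colon and 0 higher, including Hnf4g (251 ± 70.7 to 50.4 ± 6.34 CPM) and Nr1h4 (122 ± 44.0 to 38.5 ± 3.30), while Hnf4a and Nr1i2 were not called.

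The phase 2 and esterase lists, lower in ileum than duodenum in IECs, did not fall as a whole from small intestine to colon. The counts below stand beside 27.6% of all genes called in either direction and 15.6% called lower in WT tissue. Phase 2 genes were divided, with 9 of 27 called higher and 5 lower, Gstm1 at 206 ± 12.9 CPM in colon against 60.6 ± 13.8 and Ugt1a1 at 12.3 ± 8.86 against 77.0 ± 34.1. Of 24 esterases, dehydrogenases and flavin monooxygenases, 11 were higher and 5 lower, with Adh1 at 786 ± 247 CPM in colon against 22.4 ± 5.41. The transporters, with a median of -0.15 from duodenum to ileum in IECs, had a median of -0.83 here. Of 15, 3 were higher and 8 lower, with Abcc2 at 2.65 ± 0.297 CPM against 30.7 ± 14.5.

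Between genotypes in small intestine, 6 of the 7 genes tested had a higher mean in Btnl2-KO, but edgeR called none, against 0.0202% of 14866 genes. Of the 7, 4 had an unadjusted p below 0.05, as did 23% of all genes. DESeq2 called 1, Cyp3a13 (adjusted p = 0.0301), against 1.19% of all genes. The median log2 change was 1.07 over the 7 and -0.03 over all genes. In every case the genotypes overlapped.

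Cyp3a13 had a mean of 248 ± 138 CPM in Btnl2-KO and 118 ± 45.5 in WT small intestine (SD, n = 7 each), and a log2 change of 1.07 (SE 0.346, adjusted p = 0.129 with edgeR). Cyp4f14 ranged from 464 to 1180 CPM in Btnl2-KO and from 145 to 565 in WT, with a log2 change of 0.78 (SE 0.285, adjusted p = 0.147). Cyp3a11 was at 647, 92.7, 52.4, 249, 42.4, 89.0 and 9.05 CPM in Btnl2-KO and at 14.4, 35.3, 125, 27.8, 35.8, 1.36 and 1.93 in WT. Its highest library, Btnl2-KO replicate 1, was the one with the most Gata4, and its 2 lowest, WT replicates 6 and 7, had the lowest enterocyte sums of the organ (3780 and 2340 CPM). The log2 change was 2.27 (SE 0.947, adjusted p = 0.181), and without the libraries over 10 CPM of Gata4 it was 1.12 (adjusted p = 0.651). It was 3.37 (adjusted p = 0.0727) without the Car1 libraries and 2.61 (adjusted p = 0.303) without both kinds.

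Cyp2b10 rested on a single library. Btnl2-KO replicate 1 held 144 CPM and the other 6 Btnl2-KO libraries 0 to 3.27, against 0.113 to 9.99 in WT. Its log2 change of 3.53 (SE 1.44, adjusted p = 0.175) became -0.42 without that library. Cyp2c55 turned on the 2 WT libraries with Car1 as well, from -0.37 (SE 1.04, adjusted p = 0.846) with them to 2.56 (adjusted p = 0.0879) without them. Cyp2c65 and Cyp3a25 had log2 changes of 0.51 (adjusted p = 0.549) and 1.08 (adjusted p = 0.309).

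The enterocyte sum in small intestine was 14100 to 38400 CPM (median 20700) in Btnl2-KO and 2340 to 15900 (median 14000) in WT, and the pan-epithelial sum 15300 to 20200 and 10300 to 19600. With the pan-epithelial level as a covariate none of the 7 was called, and the log2 change of Cyp3a13 was 0.69 (adjusted p = 0.565). None of the 5 lists of related genes had a member called by edgeR between genotypes in small intestine. All 12 regulators had a positive log2 change, with a median of 0.28.

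In colon, edgeR called 0 of the 4 genes tested between genotypes (0.0269% of all genes). At an unadjusted p below 0.05 there were 0 (4.14% of all genes), and DESeq2 called 0 (0.0672%). Cyp2c55, the leading one there, was at 688 to 1290 CPM (median 906) in Btnl2-KO and 360 to 1300 (median 817) in WT, a log2 change of 0.17 (SE 0.240, adjusted p = 0.976). Cyp3a13, Cyp2c65 and Cyp4f14 had log2 changes of -0.09, -0.56 and -0.20, each with the same adjusted p. Cyp3a11 had 13 counts in the 7 Btnl2-KO colon libraries, 10 of them in replicate 2, and 1 count in the 6 WT libraries.

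The difference between genotypes was also compared between colon and small intestine. No gene of the 7 tested was called for this interaction, against 0.0193% of all genes. DESeq2 also called 0 (0.109% of all genes), and 2 had an unadjusted p below 0.05 (12.9% of all genes). These 2 were Cyp3a13, with an interaction of -1.16 on the log2 scale (SE 0.396, adjusted p = 0.314), and Cyp4f14, with -0.98 (SE 0.386, adjusted p = 0.323).

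The sorted γδ IEL libraries, in which the T cell genes summed to 35600 to 94300 CPM against 26.1 to 418 in IECs, also carried P450 reads. In WT γδ IELs 5 of the 7 genes tested were called lower in ileum than in duodenum, against 2.11% of 12899 genes called and 1.03% called lower. These 5 were also the ones whose groups did not overlap, against 3.39% of genes lower without overlap. The median log2 change was -3.13 over the 7, also with Cyp2b10 at its bound, and -0.01 over all genes.

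Cyp3a11 was at 103, 54.4, 8.83 and 25.8 CPM in WT duodenal γδ IELs, at 4.79, 14.8, 3.29 and 27.5 in jejunal ones and at 0, 0.072, 0.0668 and 0.0565 in ileal ones. The ileum held 3 counts in all, and the ratio of duodenum to ileum was 960, with a 95% counting interval of 328 to 4660 (adjusted p = 0.000512). Cyp2b10 was at 77.6, 37.8, 10.6 and 22.7 CPM in duodenum, at 5.76, 9.30, 4.31 and 12 in jejunum and at 0 in all 4 ileal libraries. Its ileal level was at least 196-fold lower than the duodenal one (adjusted p = 0.00029), or 125-fold without duodenum replicate 1, and at least 41.4-fold lower than the jejunal one. Cyp2c65 was at 52.7, 45.9, 22.3 and 16.7 CPM in duodenum, at 9.69, 18.3, 6.30 and 16.7 in jejunum and at 1.91, 6.56, 7.55 and 5.82 in ileum, with a log2 change of -2.65 from duodenum to ileum (SE 0.467, adjusted p = 0.00755). Duodenum and ileum were apart for all 3 of these, while duodenum and jejunum overlapped.

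Cyp3a25 and Cyp2c55 had log2 changes of -3.13 (SE 0.718, adjusted p = 0.0364) and -3.75 (SE 0.778, adjusted p = 0.0214). Cyp4f14 was again near even, at 59.9, 55.3, 42.6 and 48.2 CPM in duodenum and 22.9, 63.0, 37.0 and 35.4 in ileum (log2 change -0.37, SE 0.332, adjusted p = 0.71). Cyp3a13 had a log2 change of -1.09 (SE 0.400, adjusted p = 0.249), and Cyp2c29, too low to test, had no count in ileum and 0.423 CPM in duodenum, at least 2.23-fold more, or 1.3-fold without duodenum replicate 1. From duodenum to jejunum 3 of 7 were called lower (Cyp3a11, Cyp2b10 and Cyp2c65), against 22.5% of all genes called and 12.1% called lower. DESeq2 called 2 there, without Cyp3a11 (-1.96, adjusted p = 0.059), against 23.8% of all genes. From jejunum to ileum 4 of 7 were called lower (Cyp3a11, Cyp2b10, Cyp3a25 and Cyp2c55), against 21.9% and 10.5%. Leaving out 1 library left 3 called from duodenum to ileum (duodenum replicate 1 or 2, ileum replicate 3 or 4), 1 from duodenum to jejunum (duodenum replicate 1 or 2, jejunum replicate 1 or 3) and 2 from jejunum to ileum (jejunum replicate 1 or 4, ileum replicate 3 or 4). The share of all genes called in these fits is not given here, so a loss for these genes cannot be told from a loss over all genes.

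Epithelial genes were present in the same sorted libraries. In WT γδ IELs the 12 pan-epithelial genes, all detected, summed to 3310 to 5370 CPM in duodenum, 2040 to 5620 in jejunum and 3470 to 9270 in ileum, so they did not fall along the gut. The enterocyte sum did, from 1140 to 5980 CPM in duodenum to 391 to 1250 in jejunum and 205 to 647 in ileum. With the pan-epithelial level as a covariate 7 of 7 genes were called lower from duodenum to ileum (4.28% of all genes called), 2 of 7 from duodenum to jejunum (23.2%) and 7 of 7 from jejunum to ileum (12%).

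**Figure D5:**
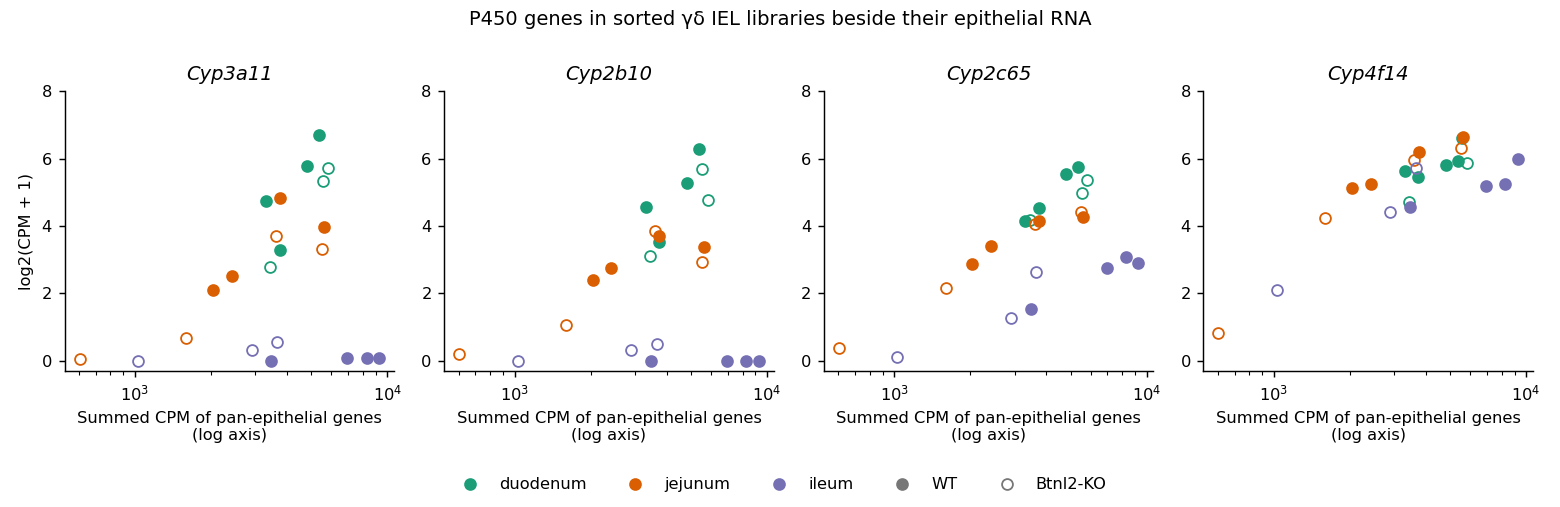
Log2(CPM + 1) of Cyp3a11, Cyp2b10, Cyp2c65 and Cyp4f14 in every γδ IEL library against the summed CPM of 12 pan-epithelial genes on a log axis, coloured by segment, filled for WT and open for Btnl2-KO. The Btnl2-KO jejunum library with the lowest epithelial sum (604 CPM) had the lowest value of its group for these 4 genes, and ileal libraries had Cyp2b10 at or near 0 at epithelial sums up to 9270 CPM.

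The level of each gene in WT γδ IELs was set beside that in WT IECs of the same segment, with no test since the tables were normalised apart. In duodenum the pan-epithelial mean in γδ IELs was 35.4% of that in IECs and the enterocyte mean 37.8%, and the P450 genes ranged from 16.2% (Cyp4f14) over 24.6% (Cyp2c65) and 32.8% (Cyp2b10) to 56.7% (Cyp3a11). In jejunum the pan-epithelial mean was 29% and the enterocyte mean 12.3%, with 21.8% for Cyp4f14, 20.4% for Cyp2c65, 36% for Cyp2b10 and 77% for Cyp3a11. In ileum the pan-epithelial mean was 51.3% and the enterocyte mean 8.95%, with 16.5% for Cyp4f14, 23.6% for Cyp2c65, 3.07% for Cyp3a11 and 0% for Cyp2b10. Cyp3a25, Cyp3a13 and Cyp2c55 were at 31.1%, 19.7% and 13.9% there, so the genes did not share a common percentage. Whether the P450 reads came from γδ IELs or from epithelial RNA in the sort was not tested.

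Related genes were counted in the same comparison of WT γδ IEL ileum with duodenum, and most of them did not pass the test. Of all genes, 2.11% were called in it and 1.03% were called lower. Of 26 phase 2 genes tested 7 were called lower and 0 higher (median -0.76), with Gstm3 at 132 ± 70.3 CPM in duodenum and 7.11 ± 0.955 in ileum (n = 4 each). Of 21 esterases, dehydrogenases and flavin monooxygenases 7 were lower and 0 higher (median -1.05), with Adh6a at 175 ± 88.2 and 3.76 ± 1.37 CPM. Among the 12 regulators 2 were lower, Nr1i3 at 4.66 ± 0.29 and 0.478 ± 0.263 CPM and Cyb5r3 at 230 ± 35.4 and 139 ± 30.4, and 0 were higher (median -0.20). Of 15 other Cyp1 to Cyp4 genes 1 was lower, Cyp2c66, at 3.68 ± 1.62 and 0.018 ± 0.036 CPM (median -0.12), and of 15 transporters 1 was lower, Slc47a1 (median -0.01).

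Between genotypes, none of the P450 genes was called in γδ IELs. In duodenum edgeR called 0 of 8 (0.00789% of all genes), in jejunum 0 of 7 (0.00794%) and in ileum 0 of 4 (0%). In each, 0 had an unadjusted p below 0.05 (2.07%, 6.38% and 8.79% of all genes). DESeq2 called 0 in each (0.0315%, 0.0159% and 1.75% of all genes). The median log2 changes were -0.26, -0.60 and -0.94. In ileum, where edgeR called no gene, Btnl2 was not called either, at 0 to 0.124 CPM in Btnl2-KO and 2.47 to 3.6 in WT. The absence of a call there does not show equal levels. In Btnl2-KO jejunum Cyp3a11 was at 12, 0.0383, 0.612 and 9 CPM and Cyp4f14 at 60.6, 0.765, 17.8 and 79.2. The low replicate 2 had the lowest pan-epithelial sum of all 22 libraries, 604 CPM. In Btnl2-KO ileum the pan-epithelial sum was 1030 to 3660 CPM against 3470 to 9270 in WT. The difference between genotypes was not called to differ between ileum and duodenum or between jejunum and duodenum for any of the 8 (0% of all genes in each). At an unadjusted p below 0.05 there were 0 (5.73% and 4.84% of all genes), and DESeq2 called 0 (0.015% of all genes in each).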

How the data were processed

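Bulk RNA-seq of IECs, sorted γδ IELs and whole tissue was analysed (65 libraries). The authors mapped reads with ArrayStudio to a customised mouse genome (GRCm38 per the labels), kept sense-strand exon reads and deposited RSEM expected counts per Entrez gene. Labels and methods name different library kits. Counts were rounded, and CPM used TMM factors per table. Of 24475 identifiers 24375 had a symbol in RefSeq (GRCm38.p6), and the rest held 0.2535% to 9.24% of counts. One deposited column matched no sample and was left out (1 column). Single-cell γδ IEL libraries were not used here.

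Genes reaching 10 counts in a number of libraries equal to the smaller group size were tested with edgeR 4.0.16 (quasi-likelihood F test, R 4.3.3), with Benjamini-Hochberg adjustment over all genes tested. WT segments shared 1 fit per table, while organ and genotype comparisons used the groups compared. Alternatives were DESeq2 1.42.0, RLE size factors, no low-count filter, no minimum fold, all libraries in 1 fit, covariates for epithelial or proximal RNA, and leaving out each library. The tests were also run on simulated counts, with a common spread for all genes and only well-counted genes changed. That run does not cover genes near the floor, and its outcome is not given here. The labels do not tie libraries to litters or preparation days, so p-values measure the spread between these libraries, and intervals and floors (3 counts per library, 95% exact) cover counting error only.

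The genes, lists and motifs were chosen with earlier results of these data known. Besides the 8 genes, up to 4 called genes of each list and direction were named, and close relatives; regulators, Cyb5 and other listed genes named without a call were chosen after their values were seen. Within each group, replicate pairs differed beyond sampling noise.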

Additional observations from a re-analysis of the deposited data

Results flagged for a closer look

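In groups of 4 to 10 libraries, 4 of 48 gene and group pairs held a library whose gap to the others on the log2(CPM + 1) scale passed Dixon's 95% value, which chance passes in 5 percent of groups. All 4 were in small intestine. Cyp2b10 was at 144 CPM in Btnl2-KO replicate 1, with the next library at 3.27, and at 9.99 CPM in WT replicate 5, with the next at 1.77. Cyp2c29 was at 1.38 CPM in Btnl2-KO replicate 1 and at 0 in the other 6. Cyp3a25 was at 15.2 CPM in Btnl2-KO replicate 7, the lowest, with the next at 81.5. Btnl2-KO replicate 1 and WT replicate 5 were also the libraries with the most Gata4 (96.6 and 83.5 CPM) and the least Fabp6 (435 and 106 CPM) of small intestine, and whether they came from another stretch of the gut was not tested.

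On the linear scale 10 pairs passed, among them Cyp3a11 in Btnl2-KO replicate 1 (647 CPM) and Cyp2c65 in WT colon replicate 3 (57.2 CPM).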

How the results depend on the processing

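Of 306 alternative counts of P450 genes called, 27 fell on another side of the threshold or moved by over 1.5 times, as did 103 of 986 single-gene values. None of 128 group levels moved by more than 1 SD without TMM. In each case below the cause was not tested. With all libraries of a table in 1 fit, the count called fell to 0 for WT IEC ileum against duodenum (0 of all genes). For WT γδ IELs it fell to 2 for ileum against duodenum (0.936% of all genes), 0 for jejunum against duodenum (15.5%) and 2 for ileum against jejunum (10.7%). In small intestine between genotypes it rose to 1 (1.41%). DESeq2 called 3 for WT IEC jejunum against duodenum (3.27%), 4 for ileum against jejunum (2.19%) and 1 in small intestine between genotypes (1.19%). For WT IEC ileum against jejunum, 1 was called with no filter on low counts (0.522% of all genes) and 1 without the 3 IEC libraries in doubt (1.28%). The latter setting was chosen after seeing the data, like those without Car1 or Gata4 libraries. The pan-epithelial covariate gave 7 for WT γδ IEL ileum against jejunum (12% of all genes) and 2 for Btnl2-KO colon against small intestine (19.4%), where it nearly followed the organ. Leaving out 1 library gave 0 to 2 called for WT IEC ileum against jejunum, 3 to 5, 1 to 4 and 2 to 4 for the γδ IEL comparisons (ileum against duodenum, jejunum against duodenum, ileum against jejunum), 3 to 4 for WT and 6 to 6 for Btnl2-KO colon against small intestine, and 0 in each genotype comparison. Fits that left 1 library in a group are not counted in these ranges. The shares of all genes called in these fits are not given here. Log2 changes that turned were those of Cyp4f14 from duodenum to jejunum in IECs (-0.40 to 0.12 over the libraries left out) and γδ IELs (-0.10 to 0.43), Cyp3a13 in WT colon against small intestine (0.08 with the covariate), and, between genotypes in small intestine, Cyp2c65 (-0.19 with the covariate, -0.06 without Gata4 libraries), Cyp2c55 (2.56 without Car1 libraries, 2.13 without both kinds, -0.79 to 0.87 over the libraries left out) and Cyp2b10 (-0.42 to 5.43). No paired analysis was possible because the labels number no replicates across groups. Most libraries were at or under 3 counts for Cyp2c29 in tissue, Cyp2b10, Cyp3a11 and Cyp3a25 in colon, and Cyp3a11 and Cyp2b10 in WT γδ IEL ileum.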
